A study of Mus musculus with 9 samples.

Results

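Cyclic nucleotide phosphodiesterases hydrolyse the second messengers cAMP and cGMP, and so set how long and how far a signal from an adenylyl or guanylyl cyclase spreads in a cell. Neurons and glia combine several families. PDE1 enzymes are activated by calcium and calmodulin, PDE2 is stimulated by cGMP, PDE4, PDE7 and PDE8 act on cAMP, and PDE10A, best known from the projection neurons of the striatum, acts on both nucleotides. In this report 10 genes of these families, Pde1a, Pde1b, Pde1c, Pde2a, Pde4a, Pde4b, Pde4d, Pde7b, Pde8b and Pde10a, were followed through the layers of the mouse piriform cortex. They are 10 of 24 phosphodiesterase genes that were looked up, and of 33964 annotated gene symbols in all. The representing transcript of each gene was chosen by its measured count, as the one with the highest mean over the 9 samples. That mean does not use the layers, but it gives most weight to the samples with the largest totals.

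The samples came from wild type C57BL/6 mice, aged 8 weeks by their labels. All groups shared genotype, strain and age and had no treatment, and they differed in the layer that was cut from fresh-frozen brain sections by laser capture. In the labels the layers carry letters, with 3 replicates of each of A, B and C, and the letters were kept here because the labels do not say which numbered layer each stands for. The labels do not tie the replicates to animals, and the p-values measure the spread between these samples, which may be technical. RNA was amplified before strand non-specific sequencing. Total counts ranged from 23104306 to 76471683 per sample. Mitochondrial ribosomal RNAs took 55.3 to 70.2% of the counts of layer A samples, 12.8 to 28.1% for layer B and 20.5 to 57.1% for layer C. Levels are given as normalized CPM, that is, counts brought to a common library size after the library sizes were scaled by the TMM method. A floor of 3 counts corresponded to 0.0256 to 0.254 normalized CPM per sample and covers counting error only. All 10 genes passed the filter on low counts, and the lowest count of any of them in any sample was 29.

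Before the phosphodiesterases, the makeup of the samples was checked with markers. All 8 pan-neuronal markers were detected in every sample, but their sum was 1257 to 1839 normalized CPM in layer A, against 2575 to 6333 for layer B and 2995 to 3960 for layer C. Astrocyte markers summed to 4454 to 9858 normalized CPM in layer A, against 638 to 1009 for layer B and 1130 to 1514 for layer C, and mural cell markers to 209 to 354, 15.7 to 53.3 and 42.8 to 62.2. Layer B replicate 3 stood apart from the other samples of its layer, with a correlation across transcripts of 0.888 and 0.88 with replicates 1 and 2, which reached 0.978 with each other. Samples of layer A had correlations of 0.894 to 0.913 with each other, and those of layer C 0.905 to 0.96. In such bulk samples, fewer cells of a type and less RNA per cell cannot be told apart.

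The upstream sequences are shown for Pde1a and Pde10a, which passed the test between layers, and for Pde8b, which had similar levels in all 3 layers. The windows were taken from RefSeq, build GRCm38.p6, as the 250 bases before the annotated start, and bases inside the GENCODE transcript were removed, which left 198 for Pde10a. The Pde1a window is chr2:80128972-80129221 on the minus strand, that of Pde8b chr13:95250337-95250586 on the minus strand, and that of Pde10a chr17:8801495-8801692 on the plus strand. Each is written 5′ to 3′ on the strand of its gene, with CG dinucleotides in capitals.
Pde1a: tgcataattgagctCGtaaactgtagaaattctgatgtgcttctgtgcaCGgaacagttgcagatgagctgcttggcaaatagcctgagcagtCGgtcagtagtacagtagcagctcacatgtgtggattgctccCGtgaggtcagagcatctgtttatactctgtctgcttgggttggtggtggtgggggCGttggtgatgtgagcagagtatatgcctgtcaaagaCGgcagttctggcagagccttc
Pde8b: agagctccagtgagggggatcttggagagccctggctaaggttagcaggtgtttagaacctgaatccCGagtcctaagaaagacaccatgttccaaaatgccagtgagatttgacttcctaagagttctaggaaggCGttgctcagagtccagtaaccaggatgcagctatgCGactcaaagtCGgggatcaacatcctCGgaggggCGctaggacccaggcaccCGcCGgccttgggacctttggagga
Pde10a: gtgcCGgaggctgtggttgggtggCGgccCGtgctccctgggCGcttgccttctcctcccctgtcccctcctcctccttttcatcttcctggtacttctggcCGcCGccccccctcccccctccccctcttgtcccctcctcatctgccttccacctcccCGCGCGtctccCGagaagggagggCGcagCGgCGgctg
Over the full 250 bases, the Pde1a window had a GC content of 50.4% with 6 CG dinucleotides, and the Pde8b window had 54.4% with 8. The Pde10a window had 72.8% with 21. The medians over 32851 promoter windows were 52.4% and 6, so Pde1a lay close to both medians and Pde10a above both. A RefSeq start lay within 100 bases of the transcript start for 7 of the 10 genes, and for Pde4b, Pde4d and Pde7b none did. The cAMP response element TGACGTCA, searched on both strands, was in none of these 7 windows and in 1.55% of all windows. Its shorter form TGACG, which the longer motif contains, was also in none of the 7 and in 17.8% of all windows. The GC box GGGCGG was in 3 of the 7, those of Pde1b, Pde4a and Pde10a, and in 32.7% of all windows. These letters describe the windows only.

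The calcium-activated Pde1a (ENSMUST00000102655, GRCm38 chr2:79834453-80128939, minus strand) had the largest log2 fold change of the 10 genes, between layers A and C. Its level was 28.9, 25.9 and 34 normalized CPM in replicates 1, 2 and 3 of layer A. In layer B it was 96.6, 69.7 and 95.7 normalized CPM. In layer C it was 149, 202 and 178 normalized CPM. No layer overlapped another, and the samples stood in the order A, B, C. The means of layers A, B and C were 29.6 ± 4.13, 87.4 ± 15.3 and 176 ± 26.4 normalized CPM (SD, n = 3 each). Between layers A and B the level was 2.95-fold lower in A, with a log2 fold change of -1.56 ± 0.28 (SE, adjusted p = 0.00171 by edgeR). Between layers A and C it was 5.95-fold lower in A, a log2 fold change of -2.57 ± 0.29 (SE). This last difference was already known when the gene was chosen, and it is given as a description without a test. The comparisons with layer B use the same layer A or layer C samples, so they are not independent of that choice. Between layers B and C the level was 2.02-fold lower in B, with a log2 fold change of -1.01 ± 0.27 (SE), an unadjusted p of 0.00211 and an adjusted p of 0.635, which did not pass the threshold.

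The other PDE1 genes had different patterns. Pde1b (ENSMUST00000023132, chr15:103503034-103530052, plus strand), whose enzyme is likewise activated by calmodulin and is abundant in striatum, reached 4.23, 7.88 and 16 normalized CPM in layer A. It had 20.7, 20.7 and 25.8 in layer B, and 13.6, 7.4 and 18.4 in layer C. Layer B lay above both other layers without overlap, and layers A and C overlapped. The log2 fold change for A against B was -1.24 ± 0.44 (SE, adjusted p = 0.0675), which did not pass. It was -0.48 ± 0.43 (SE, adjusted p = 0.567) between A and C and 0.76 ± 0.43 (SE, adjusted p = 1) between B and C.

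Pde1c (ENSMUST00000164752, chr6:56105718-56362810, minus strand), a calmodulin-activated enzyme also known from olfactory sensory neurons, was the least abundant of the 10. Layer A had 5.25, 4.61 and 2.07 normalized CPM, layer B 0.943, 0.97 and 1.77, and layer C 0.712, 2.62 and 3.67. It was the PDE1 gene whose layer A samples all lay above those of layer B, while layer C overlapped both. The log2 fold change between A and B was 1.67 ± 0.57 (SE, adjusted p = 0.058), and those between A and C and between B and C were 0.75 ± 0.56 (SE, adjusted p = 0.467) and -0.93 ± 0.56 (SE, adjusted p = 1). None passed. Its counts were as low as 29 in layer C replicate 1.

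**Figure D1:**
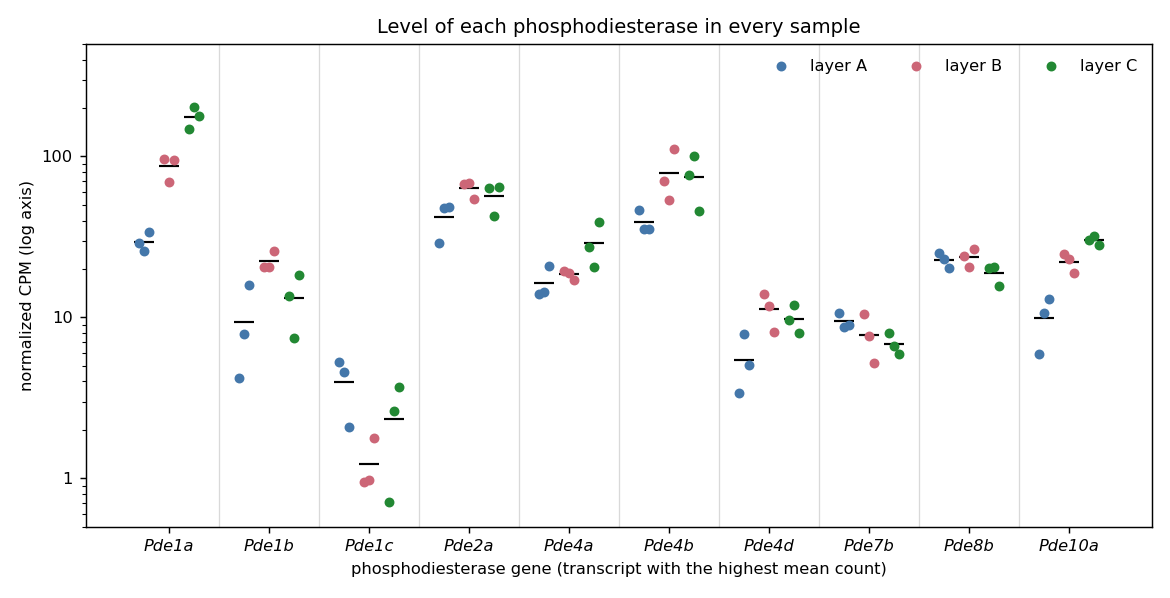
Normalized CPM (log axis) of the 10 phosphodiesterase genes in each of the 9 samples, with points for replicates and lines for the means of layers A, B and C. Pde1a separates all 3 layers, from 25.9 at the lowest in layer A to 202 at the highest in layer C, and Pde8b keeps to between 15.7 and 26.5 in all samples.

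Pde10a (ENSMUST00000089085, chr17:8801693-8986648, plus strand), which hydrolyses cAMP and cGMP, stood in the same order of layers as Pde1a. Its level was 5.93, 10.6 and 13.1 normalized CPM in layer A, 24.6, 23 and 18.8 in layer B and 30.4, 32 and 28.3 in layer C. No samples of different layers overlapped. Against layer B, layer A was 2.23-fold lower, with a log2 fold change of -1.16 ± 0.32 (SE, adjusted p = 0.0222), and against layer C it was 3.04-fold lower, with -1.61 ± 0.33 (SE, adjusted p = 0.00718). For B against C the log2 fold change was -0.45 ± 0.32 (SE, adjusted p = 1), which missed the threshold. The difference between layers A and C passed in each of 9 fits that left out a sample. That between A and B passed in 5 of 9, and was lost without layer A replicate 1 (adjusted p = 0.0899), layer A replicate 2 (0.0621), layer B replicate 1 (0.0966) or layer B replicate 2 (0.0616).

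Because striatal projection neurons are rich in PDE10A, their 11 markers were set beside Pde10a. They summed to 25.2 to 46.5 normalized CPM in layer A, against 67.9 to 189 for layer B and 41.4 to 60.9 for layer C. Among 9 tested, 7 lay below 0 for A against B and 3 of these were called lower, Drd1 and Penk among them. Against C, 6 lay below 0, and Syndig1l was called higher in A. The marker Ido1 was at 0 in all of layer A, and Drd2, which was not tested, was at 0 in 1 sample of layer B and 1 of layer C. Penk alone gave 58.7, 41.1 and 128 normalized CPM of the layer B sums of 92.4, 67.9 and 189. What part striatal neurons had in the Pde10a levels was not tested.

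Pde2a (ENSMUST00000163751, chr7:101421691-101512827, plus strand) encodes the cGMP-stimulated enzyme through which cGMP can lower cAMP. It had 28.9, 48 and 48.6 normalized CPM in layer A, 67.2, 68.5 and 54.2 in layer B and 64, 42.7 and 64.4 in layer C. Layers A and B did not overlap, and layer C overlapped both. The log2 fold changes were -0.60 ± 0.30 (SE, adjusted p = 0.204) between A and B, -0.45 ± 0.30 (SE, adjusted p = 0.404) between A and C and 0.15 ± 0.30 (SE, adjusted p = 1) between B and C, and none passed. Of its exonic length, 92.3% overlaps the annotated gene Gm45837 on the same strand, so the reads of these genes cannot be told apart.

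The PDE4 genes encode cAMP-specific enzymes that are targeted to different places in the cell by their many isoforms. Pde4b (ENSMUST00000106908, chr4:102255003-102607259, plus strand), which is expressed in many brain cells, had 46.6, 35.3 and 35.6 normalized CPM in layer A. It had 70.7, 53.8 and 111 normalized CPM in layer B and 76.9, 101 and 46.1 in layer C. The log2 fold changes of -1.01 ± 0.35 (SE, adjusted p = 0.0603) between A and B and -0.93 ± 0.35 (SE, adjusted p = 0.103) between A and C did not pass, and layers B and C differed by 0.08 ± 0.34 (SE, adjusted p = 1). Layer A lay below layer B without overlap and overlapped layer C, where replicate 3 was the lowest.

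Pde4a (ENSMUST00000039413, chr9:21165714-21213248, plus strand) had 13.9, 14.3 and 20.9 normalized CPM in layer A, 19.5, 19 and 17.2 in layer B and 27.4, 20.5 and 39 in layer C. Layer C lay above layer B without overlap, with a log2 fold change of -0.65 ± 0.31 for B against C (SE, adjusted p = 1), and overlapped layer A, with -0.82 ± 0.32 for A against C (SE, adjusted p = 0.11). For A against B the log2 fold change was -0.18 ± 0.31 (SE, adjusted p = 0.761). Pde4d (ENSMUST00000120664, chr13:109903106-109953461, plus strand) had 3.39, 7.88 and 5.04 normalized CPM in layer A, 13.9, 11.7 and 8.12 in layer B and 9.62, 11.9 and 7.97 in layer C. All samples of layer A lay below all others, narrowly for both layers, but neither the log2 fold change of -1.04 ± 0.37 against B (SE, adjusted p = 0.0703) nor that of -0.85 ± 0.37 against C (SE, adjusted p = 0.174) passed. Layers B and C differed by 0.20 ± 0.37 (SE, adjusted p = 1).

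Pde7b and Pde8b encode cAMP-specific enzymes of high affinity, and none of their log2 fold changes exceeded 0.46 in size. Pde7b (ENSMUST00000020165, chr10:20398004-20725078, minus strand) had 10.7, 8.68 and 9 normalized CPM in layer A, 10.5, 7.64 and 5.22 in layer B and 8.05, 6.63 and 5.93 in layer C. Layer A lay above layer C without overlap, with a log2 fold change of 0.46 ± 0.34 (SE, adjusted p = 0.466). Those between A and B (0.28 ± 0.34, SE, adjusted p = 0.65) and between B and C (0.18 ± 0.34, SE, adjusted p = 1) did not pass either. Pde8b (ENSMUST00000162412, chr13:95024454-95250336, minus strand) had 25.1, 23 and 20.2 normalized CPM in layer A, 24.1, 20.5 and 26.5 in layer B and 20.3, 20.7 and 15.7 in layer C. All pairs of layers overlapped. Its log2 fold changes were -0.06 ± 0.28 (SE, adjusted p = 0.922) between A and B, 0.27 ± 0.28 (SE, adjusted p = 0.623) between A and C and 0.33 ± 0.28 (SE, adjusted p = 1) between B and C. Of its exonic length, 11.1% overlaps the antisense gene Gm48420, whose reads cannot be told apart without strand.

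Counted together, 2 of the 10 genes passed the test between layers A and B, Pde1a and Pde10a, both lower in layer A. The background was 16.5% of the 56416 transcripts tested, with 5.83% lower in layer A. The layer A and layer C samples of Pde1a were part of the difference known when it was chosen. Its results against layer B in these counts are therefore not independent of its choice. Between layers A and C, where Pde1a is described without a test, 1 of the other 9 genes passed, Pde10a, lower in layer A. The background there was 11.3%, with 4.35% lower in layer A. Between layers B and C edgeR called none of the 10, with 0% of all transcripts as background. There, 1 of the 10 had an unadjusted p under 0.05, and DESeq2 also called none. The median log2 fold change of the 10 genes was -0.80 between A and B, -0.65 between A and C and 0.11 between B and C, beside -0.12, -0.01 and 0.07 over all transcripts. The value for A and C includes Pde1a. Without overlap between layers A and B were 7 of the 10, against 32.3% of all transcripts, of which 6 were lower in A, against 15.1%, and Pde1c was higher, against 17.2%. Between A and C, Pde1a is left out of this count, as its difference was already known. Of the other 9 genes, Pde4d and Pde10a were lower in A without overlap, against 14.5% of all transcripts. Pde7b was higher, against 17%, and the background in either direction was 31.4%. Between B and C, 4 of the 10 did not overlap, against 8.59%, with 3 lower in B, against 4.67%, and Pde1b higher, against 3.92%.

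The pan-neuronal markers moved with the layers too, except Map2, which lay above 0 against B and C (0.66 and 0.28, neither called). Their median log2 fold change was -1.42 between A and B, where 7 of 8 lay below 0 and 6 were called lower in layer A, -1.27 between A and C, where 7 lay below 0 and 5 were called lower, and 0.14 between B and C. Over all transcripts, 5.83% were called lower in layer A against B and 4.35% against C. Against layer B, Pde1a with -1.56 was the only one of the 10 genes with a larger decrease than this median, and Pde10a had -1.16. Against layer C, Pde1a with -2.57 and Pde10a with -1.61 both lay below the neuronal median, and the other 8 lay above it. Pde1c, Pde7b and Pde8b had log2 fold changes of 0.75, 0.46 and 0.27 there. What part the neuronal RNA content had in these differences was not tested.

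**Figure D2:**
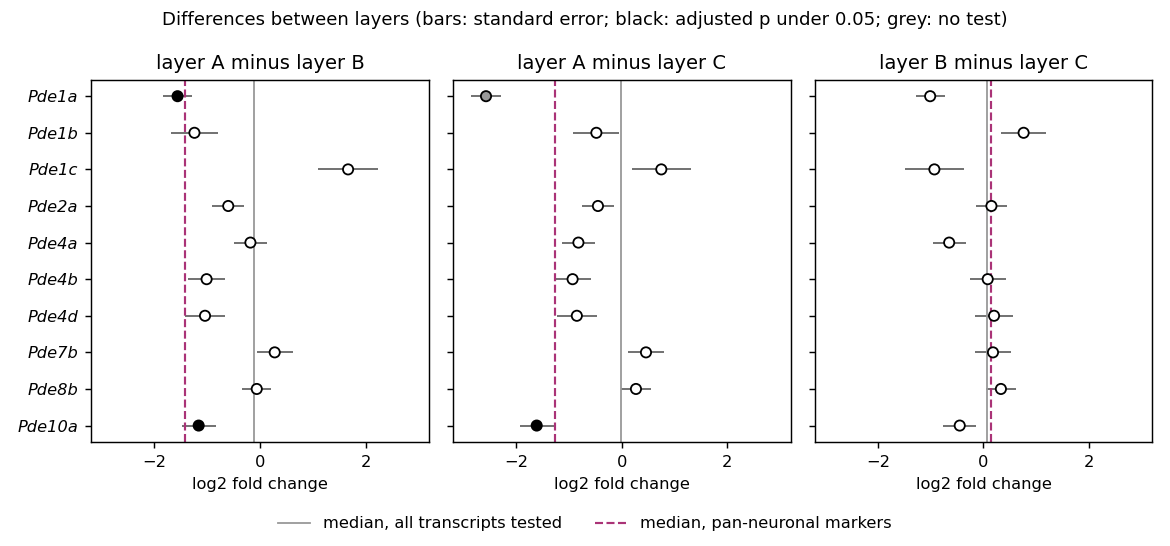
Log2 fold changes of the 10 genes between each pair of layers, with standard errors as bars and black points at an adjusted p under 0.05. The solid line marks the median of all transcripts tested and the dashed line that of the pan-neuronal markers, which is at -1.42, -1.27 and 0.14 from left to right. Pde10a is black in both comparisons with layer A and Pde1a against layer B. Pde1a against layer C is grey, as it is given without a test.

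To compare the genes with each other, levels were divided by exonic length. The 10 genes together reached 44 ± 3.66, 78.4 ± 8.81 and 95.8 ± 5.52 normalized CPM per kb in layers A, B and C (SD, n = 3 each). Of these sums, Pde1a alone made up 6.95, 20.5 and 41.4, and its difference between A and C was already known. In layer A, Pde2a with 9.91 ± 2.66 normalized CPM per kb and Pde4b with 9.1 ± 1.49 were the most abundant and overlapped each other. Pde1a followed with 6.95 ± 0.969 and overlapped Pde8b with 5.65 ± 0.612. In layer B, Pde1a with 20.5 ± 3.59, Pde4b with 18.3 ± 6.88 and Pde2a with 15 ± 1.87 led, and neighbours in this order overlapped. In layer C, Pde1a with 41.4 ± 6.2 normalized CPM per kb lay above Pde4b with 17.3 ± 6.35 and Pde2a with 13.5 ± 2.94 without overlap. Pde1c was the lowest in each layer, with 1.15 ± 0.488, 0.356 ± 0.136 and 0.676 ± 0.435 normalized CPM per kb in layers A, B and C, and overlapped Pde10a with 1.27 ± 0.47 in layer A.

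As a share of this summed level, Pde1a took 15.8% ± 1.58, 26.1% ± 2.09 and 43.1% ± 4.3 in layers A, B and C (SD, n = 3 each). The samples ranged from 13.9 to 16.7% in layer A, from 23.9 to 28% for layer B and from 38.2 to 46.4% for layer C. Pde8b went the other way, with 13% ± 2.44, 7.48% ± 0.152 and 4.89% ± 0.686, without overlap of the layers, and Pde7b had 5.24% ± 0.971, 2.44% ± 0.865 and 1.74% ± 0.334, with overlap between B and C. Since the shares of a sample add up, a large Pde1a share lowers all others. Pde4b kept 20.9% ± 5.01, 22.9% ± 6.42 and 17.9% ± 5.91, with overlapping samples in all layers.

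**Figure D3:**
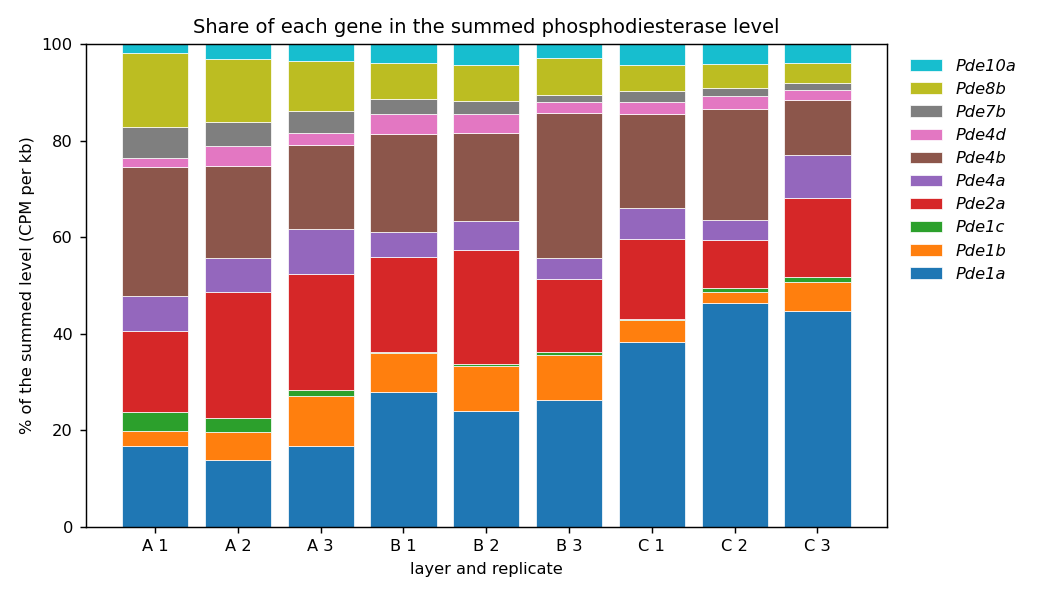
Share of each of the 10 genes in their summed level (normalized CPM per kb, in %) in each of the 9 samples, by layer and replicate. Pde1a takes 13.9 to 16.7% of the bar in layer A and 38.2 to 46.4% in layer C.

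The choice of transcript was checked next. The 10 genes have 89 transcripts in the data, of which 86 were tested, and the chosen one was the longest of its gene in 8 cases. Transcripts of a gene share exons and reads and are not independent. For 3 genes a second transcript came within 10% of the highest mean count. All 9 transcripts of Pde1a were called lower in layer A than in B, with log2 fold changes from -1.99 to -1.14. Against C their values, given without a test, ran from -2.69 to -2.36. Of the 11 transcripts of Pde10a, 6 were called against B and 8 against C, and all 11 lay below 0 in both. Pde4b had 13 transcripts, all below 0 in both comparisons. Of these, 1 was called against B and 4 against C, 3 of the 4 with 42.2 to 44.2% of the mean count of the chosen transcript. The remaining 1, also the 1 called against B, was the retained intron ENSMUST00000172845, with 0.793% of that mean count. It had 1, 0 and 2 counts in layer A, under the floor of 3 counts. In layer B replicate 3, the chosen Pde4b transcript had 111 normalized CPM and the next most abundant, ENSMUST00000106911, 28.3, whereas in replicates 1 and 2 the pairs were 70.7 and 37.6, and 53.8 and 30.1.

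None of the other genes had a called transcript in either comparison. For Pde4d, 16 of 19 transcripts were tested and all 16 lay below 0 in both comparisons. For Pde1c all 8 and for Pde7b all 7 lay above 0 in both. Pde8b, with 14 transcripts, had 9 below and 5 above 0 against layer B, between -0.19 and 0.40, and 14 above 0 against layer C.

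**Figure D4:**
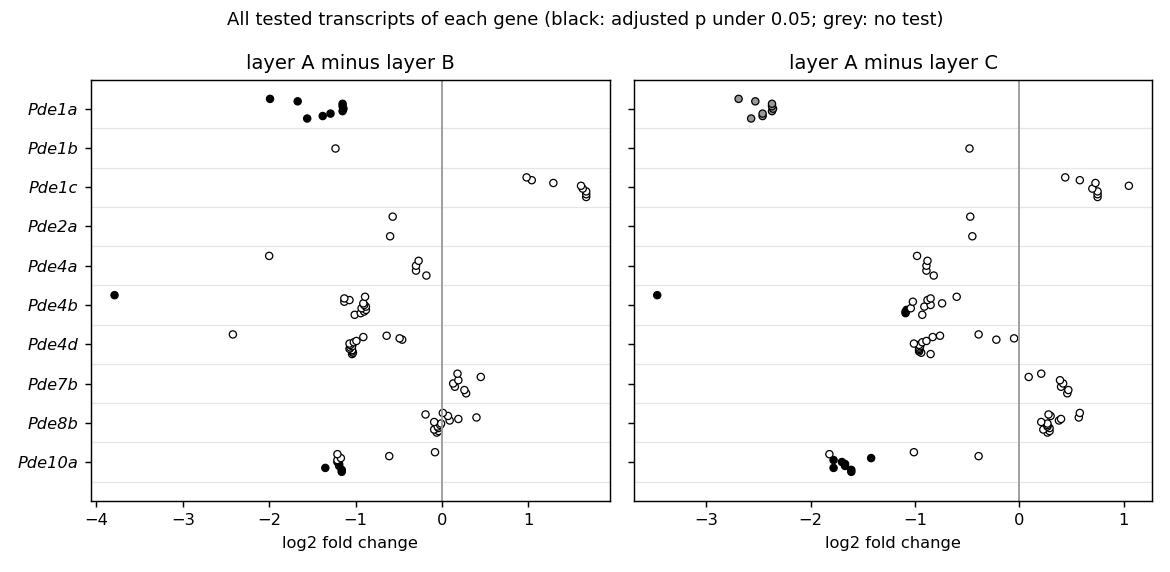
Log2 fold changes of all tested transcripts of the 10 genes between layers A and B (left) and A and C (right), with 1 point per transcript and black points at an adjusted p under 0.05. All 9 Pde1a transcripts are black on the left and grey, without a test, on the right, and those of Pde1c and Pde7b lie to the right of 0.

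Of the 14 other phosphodiesterase genes, 8 passed the filter on low counts. Those not tested were Pde4c and the photoreceptor genes Pde6a, Pde6b, Pde6c, Pde6g and Pde6h. Against layer B, 6 of the 8 lay above 0 and 2 below, and 4 were called higher in layer A and none lower, with a background of 10.7% called higher. The called genes were the cGMP-inhibited Pde3a (log2 fold change 1.64 ± 0.46, SE, adjusted p = 0.0226) and Pde3b (1.62 ± 0.41, SE, adjusted p = 0.0128), the cGMP-specific Pde5a (1.48 ± 0.38, SE, adjusted p = 0.0145) and the cAMP-specific Pde8a (2.05 ± 0.46, SE, adjusted p = 0.00657).

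In each of these 4 genes the lowest layer A sample lay above the highest layer B sample, as it did in 17.2% of all transcripts. The 4 genes were picked by their calls on the same samples, so this is a description only. Pde8a had 4.57, 3.94 and 4.06 normalized CPM in layer A, 0.741, 0.97 and 1.31 in layer B and 1.23, 1.21 and 2.79 in layer C. Pde5a had 7.03, 5.28 and 5.88 normalized CPM in layer A, 1.71, 2.01 and 2.77 in layer B and 3.93, 5.17 and 2.84 in layer C. Pde3a reached only 1.67 to 2.54 normalized CPM in layer A, 0.562 to 0.739 for layer B and 1.08 to 1.99 for layer C. Pde3b, with 15.3, 12.2 and 4.81 normalized CPM in layer A, 3.64, 3.46 and 3.37 in layer B and 3.26, 3.51 and 3.71 in layer C, was the only one of the 8 that also passed against layer C (log2 fold change 1.62 ± 0.41, SE, adjusted p = 0.0198; background 6.98% called higher). Pde8a, whose close relative Pde8b had -0.06 against layer B, had 2.05 there. The difference between these relatives was not tested.

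Beside these genes, all 6 mural and all 6 endothelial markers had higher levels in A than in B, with medians of 3.45 and 2.97. Endothelial markers summed to 177 to 203 normalized CPM in layer A, 24.9 to 42.4 for layer B and 41.7 to 54.2 for layer C, and no marker of either list was at 0 in all samples of a layer. Their part in the higher phosphodiesterase levels was not tested. Of all 14, Pde6d, which encodes a carrier of prenylated proteins named after its photoreceptor partners, had the highest level per length, with 4.31 ± 0.99, 5.27 ± 1.49 and 3.73 ± 1.5 normalized CPM per kb in layers A, B and C (SD, n = 3 each).

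The enzymes that make cyclic nucleotides and the proteins that read them were taken from fixed lists. Of 10 adenylyl cyclases, all tested, Adcy4 was higher and Adcy3 lower in layer A in both comparisons, and the other 8 did not pass. The background was 16.5% of all transcripts called against B and 11.3% against C. The list of 7 genes for cGMP synthesis includes the nitric oxide synthase gene Nos1, which does not make cGMP itself, and 5 were tested. Of these, 2 were called lower in layer A than in B and 1 than in C, beside 5.83% and 4.35% of all transcripts. None was called higher, and Nos1 was not called. In each comparison 4 of the 5, Nos1 among them, lay below 0 and 1, Npr2, above, with log2 fold changes of 0.39 (adjusted p = 0.526) and 0.95 (adjusted p = 0.12). Gucy1b1, the beta subunit of the nitric oxide receptor, had 13.6, 15.9 and 15.3 normalized CPM in layer A, 51.4, 40 and 51.4 in layer B and 43.5, 46.3 and 30.5 in layer C. It was lower in layer A by -1.67 ± 0.29 on the log2 scale against B (SE, adjusted p = 0.00131) and by -1.42 ± 0.28 against C (SE, adjusted p = 0.00689). Adcy4, by contrast, had only 1.4 to 2.03 normalized CPM in layer A and 0.0416 to 0.366 in the other layers, with a log2 fold change of 3.95 ± 0.71 against B (SE, adjusted p = 0.00176) and 2.66 ± 0.66 against C (SE, adjusted p = 0.0185). Some of its values in the other layers were at the floor of 3 counts or under it.

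Of 27 effectors, 21 were tested. Against layer B, 17 lay below 0 and 4 above, and 5 were called lower and 1 higher in layer A, beside 5.83% and 10.7% of all transcripts. Against layer C, 16 lay below 0 and 5 above, and 3 were called lower and 1 higher, beside 4.35% and 6.98%. The gene called higher was Rapgef3, which encodes the exchange factor EPAC1. It had 7.96, 8.55 and 11.6 normalized CPM in layer A and 1.39 to 2.23 in the other layers, with log2 fold changes of 2.46 ± 0.38 (SE, adjusted p = 0.000653) and 2.38 ± 0.38 (SE, adjusted p = 0.0025). Those called lower included Prkacb, a catalytic subunit of protein kinase A, with 92.8, 113 and 89.9 normalized CPM in layer A, 219, 164 and 270 in layer B and 290, 269 and 247 in layer C (log2 fold change against C -1.45 ± 0.28, SE, adjusted p = 0.00578). Prkar1b, a regulatory subunit of this kinase, had 24.6, 58.8 and 75.3 normalized CPM in layer A and 153 to 239 in layer B (log2 fold change -1.80 ± 0.39, SE, adjusted p = 0.0055).

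Of 12 anchors and activators, 11 were tested. In each comparison 8 lay below 0 and 3 above. Called in layer A were 5 lower and 1 higher than in B, beside 5.83% and 10.7% of all transcripts. Against C these were 4 lower and 1 higher, beside 4.35% and 6.98%. Akap5 and Akap6, which anchor protein kinase A beside its targets, had log2 fold changes of -1.60 ± 0.31 (SE, adjusted p = 0.00303) and -1.29 ± 0.27 (SE, adjusted p = 0.00462) against B. Against C these were -1.53 ± 0.31 (SE, adjusted p = 0.0077) and -1.39 ± 0.27 (SE, adjusted p = 0.00603). Arrb1, which encodes beta-arrestin 1, a protein that brings PDE4 enzymes to receptors, had 125, 139 and 70.1 normalized CPM in layer A, 30.1 to 38.4 for layer B and 34.9 to 58.1 for layer C. Against B the log2 fold change was 1.65 ± 0.32 (SE, adjusted p = 0.00298) and against C it was 1.22 ± 0.32 (SE, adjusted p = 0.0227).

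Over all these lists with the other phosphodiesterases, 55 of 70 genes were tested. Of the 55, 20 passed between A and B, 7 higher and 13 lower in layer A, and 13 between A and C, 4 higher and 9 lower. The background was 16.5% and 11.3% of all transcripts. For B against C none passed by edgeR, with 6 at an unadjusted p under 0.05 and none by DESeq2. The median log2 fold change was -0.54, -0.31 and 0.07.

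Genes with the pattern most like that of Pde1a, Pde2a and Pde10a were sought among 13538 protein-coding genes, by the root mean square difference of the log2 levels over the 9 samples after the mean of each gene was removed. For Pde1a the nearest was Htr1a, the serotonin receptor 1A, at 0.228, with 0.677, 1.47 and 2.04 normalized CPM in layer A, 6.22, 5.2 and 6.47 in layer B and 10.1, 11.9 and 10.4 in layer C. It was followed by Pgm2l1 at 0.309, Adgra1 at 0.314 and Kcng1 at 0.318. For Pde10a the nearest were Tenm1 at 0.176, Chrnb2 at 0.189, Sorcs3 at 0.205 and B4galnt4 at 0.215. Tenm1, a teneurin of the synaptic membrane, had 16.5 to 25.1 normalized CPM in layer A, 49.7 to 54.8 for layer B and 59.2 to 76.4 for layer C. For Pde2a, Gm45837 had a difference of 0, since it is counted on the same exons, and Sdc3 at 0.094, Nat8l at 0.103 and Scap at 0.113 followed. The 9 samples share layers and depth, and the measure is a description only.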

How the data were processed

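Counts per transcript were analysed for 9 samples of piriform cortex, 3 per layer. The authors deposited raw read counts on 95533 Ensembl transcripts, without normalization. They amplified the RNA, sequenced it without strand information and aligned it to mm10. The submitters' processing notes name bcl2fastq 1.8.4, Bowtie and HTSeq 0.5.3. How reads on several transcripts were counted is not given in the sources used here, nor is the Ensembl release. The labels give an age of 8 weeks, and the methods a higher one.

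Identifiers were joined to GENCODE M21 (GRCm38, the assembly of mm10), where 82807 (86.7%) were found. Transcripts that reached 10 counts in 3 or more samples were normalized by TMM and tested with the edgeR 4.0.16 quasi-likelihood F-test in R 4.3.3, with all 9 samples in the fit, Benjamini-Hochberg adjustment over 56416 transcripts and a threshold of 0.05. DESeq2 1.42.0 was an alternative. SE is the log2 fold change divided by the root of F. The code was tested on simulated counts. Whether same-numbered samples are paired is not known, and the main fit did not pair them. The deviations of same-numbered samples from their layer means had a mean correlation of 0.0353, and 4 of 9 pairs exceeded 0.1. For samples with different numbers the mean was -0.0138, and 6 of 18 pairs exceeded 0.1. With 3 samples per layer, these values cannot exclude a pairing.

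The members, lists and naming rules were chosen with earlier results of these data known. Named were all 10 members, other phosphodiesterases that passed and the one highest per length, the 4 pathway genes with the smallest p in each direction against B and C, and the 4 genes nearest to Pde1a, Pde2a and Pde10a (pseudocount 1). Further marker lists that were summed are given among the other observations. Some genes of the lists are not reported here by name.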

Additional observations from a re-analysis of the deposited data

How the results depend on the processing

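Pde1a passed against layer B in all 9 fits that left out a sample, with values from -1.67 to -1.44 on the log2 scale. Its values for A against C, given without a test, were -2.68 to -2.46. Between layers A and B, the number of the 10 genes that passed was 2, and 5 with DESeq2, 4 with at least 10 counts in all 9 samples, 5 with no filter and 5 with the highest transcript of each gene only. Over all transcripts these settings called 11679, 6928, 10795 and 3691, beside 9329 in the main fit. The filters differ between settings, so these numbers are not shares of 1 total. The number of the 10 that passed was 1 to 4 when a sample was left out, with 1 without layer A replicate 1 or layer B replicate 1, and 4 without layer A replicate 3 or layer B replicate 3. The added calls were among Pde1b, Pde1c, Pde4b and Pde4d, in their main direction. Pde10a missed the threshold against layer B with only the 6 samples compared (log2 fold change -1.10, adjusted p = 0.0627). Between A and C, Pde1a is again left out. There, Pde10a passed in all 9 fits that left out a sample, Pde4b in 1 and the other genes in none. Between B and C the number of the 10 that passed was 0 to 0. The pathway genes that passed were 12 to 22 between A and B (12 without layer A replicate 1, 13 without layer B replicate 1), 3 to 20 between A and C (3 without layer C replicate 1, 6 without layer A replicate 1 or 2, 8 without layer C replicate 2, 20 without layer B replicate 3) and 0 to 0 between B and C. Over all transcripts the calls were 5570 to 11337, 1369 to 9740 and 0 to 17 in the 3 comparisons when a sample was left out, the lowest without layer A replicate 1 and layer C replicate 1 and the highest without layer B replicate 3, and 3691, 2774 and 4 with the highest transcript of each gene. Between B and C, DESeq2 called 124 and the unfiltered fit 10. Leaving out layer B replicate 1 gave 5759 calls between A and B, and leaving out layer A replicate 1, layer A replicate 2 or layer C replicate 2 gave 2727, 3238 and 3785 between A and C. The replicate block gave 9184, 6384 and 0 calls and added Pde1b between A and B (-1.39, adjusted p = 0.0234), and it changed no other call of the 10 genes. Fold changes near 0 turned sign when a sample was left out: Pde8b between A and B from -0.13 to 0.08, and between B and C Pde2a from -0.02 to 0.22, Pde4b from -0.30 to 0.36, Pde4d from -0.02 to 0.35 and Pde7b from -0.13 to 0.36. The next transcript of Pde4b gave -0.15 between B and C. The causes were not tested. Among the values of single genes under an alternative, 502 kept direction and call, 22 gained and 5 lost a call, and 8 turned sign. The lowest depth was 6929782 counts outside the mitochondria, in layer A replicate 1.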

Other observations

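Several other marker lists also separated the layers. As background for the calls in this section, 10.7% of all transcripts were called higher and 5.83% lower in layer A against B. Against C these shares were 6.98% and 4.35%. Meningeal markers summed to 27.3 to 73.9 normalized CPM in layer A, 0.623 to 3.48 for layer B and 1.02 to 2.34 for layer C, and all 6 were called higher in layer A against each other layer, with a median log2 fold change of 5.30 against B. All 7 astrocyte markers were called higher in layer A against B and against C, with medians of 3.24 and 2.63. Microglial markers summed to 82.6 to 101 normalized CPM in layer A, 12.5 to 27.6 for layer B and 30.7 to 41.2 for layer C, with 4 of 6 called higher in layer A in each comparison. Markers of oligodendrocyte precursors summed to 67.6 to 99.2, 12.4 to 27.6 and 28.1 to 42.8, with 4 of 4 called higher in layer A against B. Against C all 4 lay above 0 and 1 was called. Oligodendrocyte markers summed to 158 to 260, 42 to 211 and 126 to 470, with all 6 above 0 and 1 called against B, and 1 above 0, 5 below and none called against C.

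The 6 glutamatergic markers summed to 2303 to 4227 normalized CPM in layer A, 1069 to 1215 for layer B and 1060 to 1630 for layer C. Camk2a made up most of these sums, with 2126 to 4131, 740 to 882 and 751 to 1325. It was the 1 marker above 0 in both comparisons of layer A, and the other 5 lay below 0. Called were 1 higher and 2 lower against B, and 1 higher and 3 lower against C. Of 6 GABAergic markers, 3 lay above and 3 below 0 against B, with 1 called higher in A, and 2 lay above and 4 below 0 against C, with 1 called lower. They summed to 187 to 344 normalized CPM in layer A, 52.6 to 280 for layer B and 168 to 270 for layer C. Layer B replicate 3 had 280, against 57.1 and 52.6 in replicates 1 and 2. The 5 claustrum and endopiriform markers summed to 26.4 to 37.6 normalized CPM in layer A, 20 to 30 for layer B and 26.5 to 121 for layer C, where replicate 3 was the highest, with 57.7 for Nr4a2 and 11.2 for Oprk1. Oprk1 also had 2.45 and 2.81 normalized CPM in layer C replicates 1 and 2, against 0 to 1.27 in layers A and B. For A against C, 4 of the 5 markers lay below 0, and Nr4a2 and Oprk1 were called lower. Lxn lay above 0 (log2 fold change 1.23, adjusted p = 0.159). For A against B, 2 lay above and 3 below 0, and none was called. Pde1a had 178 normalized CPM in layer C replicate 3. What part such tissue had in the Pde1a levels was not tested.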
